A study of Mus musculus with 6 samples.

Results

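Chil3 and 9 other genes of the alternatively activated macrophage program were followed in whole B16-F10 tumors of mice that received adoptive cell transfer (ACT) with IL-2 or with NKTR-214. The list is Chil3, Chil4, Retnla, Mrc1, Mgl2, Clec10a, Cd163, Folr2, Pparg and Klf4, and each was found by its symbol, which gave 10 of the 21358 entries of the expression table. It was chosen on measured values, because Chil3 has the highest log2 fold change between these groups, so the difference in Chil3 is given as a description with no test. The 6 libraries came from C57BL/6 females aged 6 to 8 weeks, with B16-F10, a syngeneic melanoma line, under the skin. All mice were irradiated with 500 cGy the day before transfer and, with tumors of 150 mm3 or more, received splenocytes of pmel-1 mice, whose CD8 T cells carry a transgenic T cell receptor for the melanocyte antigen gp100, after activation with its peptide. The ACT + IL-2 mice were then given daily intraperitoneal IL-2 (0.4 mg/kg) for 3 days in a row within each 9-day cycle. The ACT + NKTR-214 mice received NKTR-214, an IL-2 prodrug with releasable polyethylene glycol chains, intravenously at 0.8 mg/kg once a cycle. Tumors of 3 mice per group were taken on day 12. Tumors from mice without treatment, or with cells alone, were not analysed here, so each difference is between the cytokine arms, which also differ in dose, schedule and route.

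Values are FPKM, in which the reads of a gene are divided by its exon length in kilobases and by the size of the library, so that levels of different genes can be compared per length. Differences are log2 fold changes of FPKM + 1, ACT + NKTR-214 minus ACT + IL-2, from a limma fit over the 14172 genes with a mean of at least 0.1 FPKM, and a gene passed the test at a Benjamini-Hochberg adjusted p under 0.05 over all those genes. Of all genes tested, 20.7% were higher in ACT + NKTR-214 and 8.28% were lower by this test. FPKM summed to between 176419.8 and 246513.7 per library, lowest in ACT + IL-2 replicate 2, and its lowest steps correspond to about 20880000 to 24660000 counted reads per library. Where 3 values of a group are given in a row, they are those of replicates 1, 2 and 3. The 5 melanocyte genes of a list added after the values were seen, Tyrp1, Dct, Pmel, Mlana and Tyr, summed to 5176 to 6627 FPKM in ACT + IL-2 and to 2554 to 3615 FPKM in ACT + NKTR-214, so the melanoma identity of the tissue was visible in every library. In bulk tumor RNA, fewer cells of a type and less RNA per cell cannot be told apart.

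Alternative activation is the state that macrophages enter under IL-4 and IL-13, which act through receptors that share the IL-4 receptor alpha chain and through the transcription factor STAT6. It is known from helminth infection, allergic airways and wound repair, and in tumors such macrophages are commonly described beside classically activated ones. Its mouse hallmarks are the secreted chitinase-like lectins encoded by Chil3 and Chil4, also called Ym1 and Ym2, and the resistin-like protein encoded by Retnla, also called Fizz1 or RELM-alpha. Chitinase-like proteins bind sugars but lack the catalytic activity of true chitinases.

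Chil3 was at 0.678, 0.480 and 0.804 FPKM in the ACT + IL-2 tumors. It was at 74.8, 106 and 234 FPKM in the ACT + NKTR-214 tumors. The groups were far apart, and replicate 3 of ACT + NKTR-214 stood above the other tumors of its group. The group means were 0.654 ± 0.163 and 138 ± 84.6 FPKM (SD, n = 3), a ratio of 211.5, which was 138.2 without ACT + NKTR-214 replicate 3. On the log2 scale the difference was 6.23 (SE 0.28), and 7.37 with a pseudocount of 0.1 in place of 1. It ranked 1 among the genes tested, just ahead of 6.15 for Gzmf, a granzyme gene of cytotoxic lymphocytes. With the smaller pseudocount or without ACT + IL-2 replicate 3 it ranked 2, and without ACT + NKTR-214 replicate 3 it ranked 3, at 5.77. At the depth estimated above, the ACT + IL-2 values correspond to about 26.4, 18.0 and 27.4 reads, so Chil3 was detected in each of these tumors, while the ACT + NKTR-214 values correspond to about 3010 to 9080 reads.

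Chil4 was at 0 FPKM in the 3 ACT + IL-2 tumors, and at 0.0267, 0.0271 and 0 FPKM in the ACT + NKTR-214 tumors. These values correspond to about 1.86 reads at most, and Chil4 was the 1 member below the minimum for testing. Chil3 lies at chr3:106147554-106167564 and Chil4 at chr3:106201490-106219507, both on the minus strand of GRCm38 (GENCODE vM21), so they are close neighbours. Of the 50-base stretches of the annotated Chil3 transcripts, 26.9% also occur in another gene, mostly Chil4, and the reads were 50 bases long. Of the stretches of Chil4, 11.0% also occur in another gene, mostly Chil3, so most of Chil4 is its own sequence. Reads over the shared part could belong to either gene, and their origin was not tested.

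The start regions of these neighbours, which differed so much in level, are alike in sequence. Over the 250 bases before the RefSeq start sites, 201 of 221 aligned bases are identical (91.0%). Both hold a match to TTCNNNGAA, the palindrome that many STAT proteins bind, 172 bases before the start of Chil3 and 200 bases before that of Chil4. Retnla, whose difference was the next highest among the members, holds a match to the form with 1 more base between its arms, TTCNNNNGAA, which is known for STAT6, 145 bases before its start. The RefSeq starts of Chil4 and Retnla lie inside their GENCODE gene bounds, so these distances depend on the start chosen. The 172 and 200 bases need not mean that the match is placed differently in Chil3 and Chil4. The bases from 250 to 61 before each start are shown 5′ to 3′ on the strand of the gene, from RefSeq on GRCm38.p6, with the match in capitals; they are chr3:106167625-106167814 for Chil3, chr3:106219540-106219729 for Chil4, both on the minus strand, and chr16:48842359-48842548 on the plus strand for Retnla.
Chil3: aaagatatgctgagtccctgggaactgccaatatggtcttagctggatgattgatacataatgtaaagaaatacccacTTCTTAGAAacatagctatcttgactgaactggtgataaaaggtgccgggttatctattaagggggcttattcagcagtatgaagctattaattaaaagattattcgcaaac
Chil4: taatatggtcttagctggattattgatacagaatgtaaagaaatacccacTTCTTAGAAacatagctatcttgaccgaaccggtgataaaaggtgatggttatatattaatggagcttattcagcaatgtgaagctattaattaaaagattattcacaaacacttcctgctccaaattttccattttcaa
Retnla: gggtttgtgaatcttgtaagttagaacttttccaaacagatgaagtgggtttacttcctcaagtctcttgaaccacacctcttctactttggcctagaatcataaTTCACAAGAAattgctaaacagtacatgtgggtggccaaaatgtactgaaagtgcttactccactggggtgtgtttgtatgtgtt
A RefSeq start region was found for 9 of the 10 members, with none for Clec10a, and the windows of the other members held neither motif. Among all 32851 RefSeq windows of this length, 7.02% hold TTCNNNGAA and 5.85% hold TTCNNNNGAA, read on both strands, since each motif is its own reverse complement. A match is a description of the letters, not a binding site or a cause.

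Retnla encodes the secreted resistin-like molecule alpha and lies at chr16:48842551-48844461. It was at 3.77, 1.24 and 1.04 FPKM in the ACT + IL-2 tumors, and at 32.3, 45.0 and 37.0 FPKM in the ACT + NKTR-214 tumors. All ACT + NKTR-214 tumors were above all ACT + IL-2 tumors, with the highest ACT + IL-2 value in replicate 1. The log2 fold change was 3.80 (SE 0.25, adjusted p = 5.82e-08 from limma), and the ratio of mean FPKM was 18.9, or 33.5 without ACT + IL-2 replicate 1. Of the resistin family, Retnlg, a gene of neutrophils, was at 0.157 to 0.358 FPKM in ACT + IL-2 and at 1.06 to 2.76 FPKM in ACT + NKTR-214 and passed the test (log2 fold change 1.15, adjusted p = 8.84e-05 from limma). Retn, the resistin gene, also passed (0.83, adjusted p = 0.0147 from limma), but its groups overlapped, and Retnlb was at 0 in all 6 libraries. Of the chitinase family apart from Chil3, Chid1 and Chil1 were tested and neither passed, with adjusted p of 0.712 and 0.0929 from limma. Chid1 was at 10.4 to 13.3 FPKM in ACT + IL-2 and 12.5 to 13.4 FPKM in ACT + NKTR-214. Chil5, Chil6, Chia1 and Chit1 were below the minimum for testing, at 0.203 FPKM or less in every library.

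The surface receptors came next. Mrc1, the mannose receptor CD206, was at 17.4, 7.06 and 6.06 FPKM in the ACT + IL-2 tumors, and at 37.4, 50.3 and 46.1 FPKM in the ACT + NKTR-214 tumors. It was the most abundant member in ACT + IL-2, and it differed by 2.16 on the log2 scale (SE 0.27, limma adjusted p = 1.7e-05) without overlap between the groups. Mgl2 and Clec10a encode the C-type lectins CD301b and CD301a, which bind galactose-type sugars on macrophages and dendritic cells, and they are neighbours at chr11:70130329-70137550 and chr11:70156197-70170834. Mgl2 was at 2.43, 1.15 and 1.08 FPKM in ACT + IL-2 and 11.0, 19.0 and 13.6 FPKM in ACT + NKTR-214. Clec10a was at 7.18, 1.80 and 0.952 FPKM in ACT + IL-2 and 12.7, 22.1 and 16.4 FPKM in ACT + NKTR-214. Both were higher in every ACT + NKTR-214 tumor, with log2 fold changes of 2.61 (SE 0.22, adjusted p = 4e-07 from limma) for Mgl2 and 2.31 (SE 0.36, adjusted p = 0.000172) for Clec10a. Clec10a varied 7.54-fold among the ACT + IL-2 tumors, more than any other member. Of the 50-base stretches of Mgl2, 13.1% also occur in another gene, mostly Clec10a, so a part of their reads may be shared.

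Cd163, the scavenger receptor for haemoglobin and haptoglobin complexes, was the lowest of the receptors. It was at 0.960, 0.398 and 0.277 FPKM in the ACT + IL-2 tumors and at 1.75, 2.90 and 2.86 FPKM in the ACT + NKTR-214 tumors, with no overlap and a log2 fold change of 1.19 (SE 0.17, adjusted p = 8.08e-05 from limma). Folr2, the folate receptor beta of tissue macrophages, was at 10.1, 4.16 and 2.94 FPKM in ACT + IL-2 and at 13.3, 18.5 and 12.3 FPKM in ACT + NKTR-214. Its groups did not overlap, but ACT + IL-2 replicate 1 came close to the lowest ACT + NKTR-214 tumor. The log2 fold change was 1.35 (SE 0.28, adjusted p = 0.00179 from limma), and without ACT + IL-2 replicate 2 it was 1.23 with an adjusted p of 0.0701. In GENCODE vM21, 63.1% of the exon bases of Folr2 (chr7:101839988-101857194) also belong to another gene model, Gm10602, and how reads over both were counted is not given in the sources used here.

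Of the transcription factors, Klf4 passed the test and Pparg did not. Klf4, a zinc finger factor that works with STAT6 in alternative activation and also acts in epithelium, was at 3.60, 1.26 and 1.57 FPKM in the ACT + IL-2 tumors and at 8.38, 8.75 and 6.52 FPKM in the ACT + NKTR-214 tumors. The groups did not overlap (log2 fold change 1.56, SE 0.22, adjusted p = 7.13e-05 from limma). Pparg, a nuclear receptor of lipid metabolism that macrophages and adipocytes both use, was at 1.95, 0.845 and 0.740 FPKM in ACT + IL-2 and at 2.61, 2.59 and 1.27 FPKM in ACT + NKTR-214. Here the groups overlapped, since ACT + IL-2 replicate 1 lay above ACT + NKTR-214 replicate 3. The difference of 0.55 on the log2 scale (SE 0.21, 95% interval 0.11 to 0.98) did not pass over all genes (limma, adjusted p = 0.0589). It passed without ACT + IL-2 replicate 1 (log2 fold change 0.79, adjusted p = 9.95e-06), without ACT + NKTR-214 replicate 3 (0.77, adjusted p = 2.06e-05), without ACT + NKTR-214 replicate 2 (0.44, adjusted p = 0.0407) and with a minimum of 1 FPKM (adjusted p = 0.0357). It was 0.25 with quantile normalization (adjusted p = 0.324) and 0.45 without ACT + IL-2 replicate 2 (adjusted p = 0.279). Over all alternatives the adjusted p ran from 9.95e-06 to 0.324. The p-values of fits that drop a tumor were unstable, so those above do not settle whether Pparg differed. For Retnla, the limma adjusted p was 3.34e-106 when ACT + IL-2 replicate 1 was dropped. It was 0.00424 when replicate 2 of that group was dropped. The log2 fold changes of Retnla in these fits were 4.18 and 3.64. Adiponectin (Adipoq), the defining adipocyte gene, was at 5.11, 2.48 and 0.311 FPKM in ACT + IL-2 and at 10.8, 5.63 and 1.16 FPKM in ACT + NKTR-214, so Adipoq and Pparg were both highest in replicate 1 and lowest in replicate 3 of each group. The 6 adipocyte genes summed to 25.7 to 110 FPKM in ACT + IL-2 and 46.6 to 226 FPKM in ACT + NKTR-214, and their part in the Pparg values was not tested.

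In all, 8 of the 9 members other than Chil3 were tested, and 7 of them rose in ACT + NKTR-214 while 0 fell, against 20.7% and 8.28% of all genes tested. The lower share depends on the scaling, with 1173 genes lower as deposited, 3710 after scaling to a common 75th percentile and 4549 after quantile normalization. The same 7 did not overlap between the groups, against 27.1% of all genes tested that were higher in every ACT + NKTR-214 tumor. The 1 that did neither was Pparg. The list was put together around Chil3 with this contrast known, so these counts are not independent evidence of its direction. The median log2 fold change of the 8 was 1.86, and that of all genes tested was 0.045. Each of the 8, and Chil3, also had a mean of at least 0.1 FPKM within ACT + IL-2 alone, so none was tested only because of its level in ACT + NKTR-214.

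**Figure D1:**
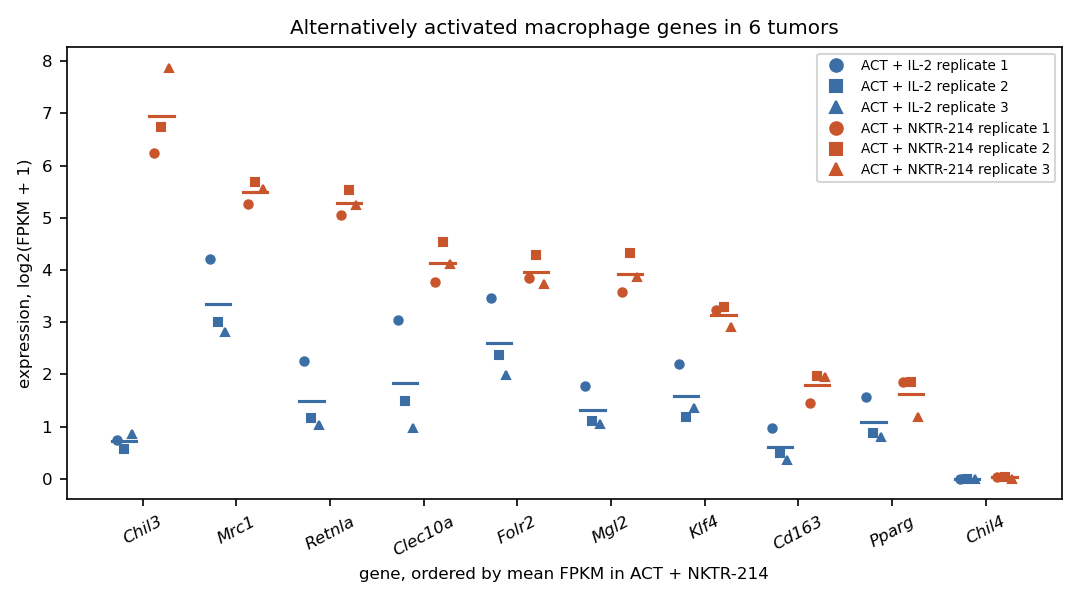
Expression of the 10 members in each of the 6 tumors as log2(FPKM + 1), with genes ordered by their mean in ACT + NKTR-214, symbols for the replicates and bars for the group means. Chil3 moved from below most other members in ACT + IL-2 (0.480 to 0.804 FPKM) to above all of them in ACT + NKTR-214 (74.8 to 234 FPKM), while Pparg overlapped between the groups.

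The order of the members differed between the groups. In ACT + IL-2 it ran from Mrc1 (mean 10.2 FPKM) through Folr2 (5.73), Clec10a (3.31), Klf4 (2.15), Retnla (2.01), Mgl2 (1.55), Pparg (1.18), Chil3 (0.654) and Cd163 (0.545) to Chil4 at 0. The ranges of neighbours in this order overlapped, except for Cd163 above Chil4, so most places in it are not fixed by these tumors. In ACT + NKTR-214 it ran from Chil3 (138 FPKM) through Mrc1 (44.6), Retnla (38.1), Clec10a (17.0), Folr2 (14.7), Mgl2 (14.5), Klf4 (7.88), Cd163 (2.50) and Pparg (2.16) to Chil4 (0.0179). There, Chil3 lay above Mrc1 in 3 of 3 tumors with no overlap of their ranges, and the steps from Retnla to Clec10a, from Mgl2 to Klf4, from Klf4 to Cd163 and from Pparg to Chil4 also came without overlap. Mrc1 and Retnla overlapped, as did Clec10a and Folr2, Folr2 and Mgl2, and Cd163 and Pparg.

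Genes that macrophages express in general were also higher in ACT + NKTR-214. All 10 pan-macrophage markers passed the test, 8 of them without overlap between the groups, with a median log2 fold change of 1.66 and a summed level of 277 to 816 FPKM in ACT + IL-2 and 1079 to 1872 FPKM in ACT + NKTR-214. Among all genes tested, 20.7% were higher and 27.1% were higher without overlap. The count of markers that passed fell to 4 of 10 in the fit without ACT + IL-2 replicate 2. The most abundant were the complement genes C1qb (log2 fold change 1.66, adjusted p = 0.00123 from limma), C1qc and C1qa, and the lysosomal protein gene Cd68 (1.91, adjusted p = 3.7e-05 from limma). The mean log2(FPKM + 1) of the 10 markers was 5.45, 4.44 and 4.05 in the ACT + IL-2 tumors and 6.10, 6.61 and 5.87 in the ACT + NKTR-214 tumors. Within ACT + IL-2 the markers were highest in replicate 1, and within ACT + NKTR-214 in replicate 2, and most members were highest in the same tumors.

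Each member was therefore set against the macrophage markers of its own tumor, by taking the mean of the 10 markers from its log2(FPKM + 1). This is a description with no test. The difference between the groups was then 4.69 for Chil3, 2.25 for Retnla, 1.07 for Mgl2, 0.77 for Clec10a and 0.61 for Mrc1, and for these 5 genes every ACT + NKTR-214 tumor remained above every ACT + IL-2 tumor. Chil3 stood at -4.70, -3.88 and -3.20 relative to the markers in the ACT + IL-2 tumors and at 0.14, 0.13 and 2.01 in the ACT + NKTR-214 tumors. It thus lay far below the average macrophage marker in ACT + IL-2 and at or above that average in ACT + NKTR-214. Folr2 (-0.20) and Pparg (-1.0) were lower relative to the markers in every ACT + NKTR-214 tumor. Klf4 (0.02) and Cd163 (-0.36) overlapped. This measure depends on single tumors and on the pseudocount. With 1 tumor left out it ran from -0.60 to -0.19 for Cd163 and from -0.08 to 0.20 for Klf4. With a pseudocount of 0.1 the value was 0.50 for Cd163, a change of sign, now without overlap, and -0.10 for Folr2, whose groups then overlapped. It was 0.34 for Klf4, still with overlap, 5.76 for Chil3 and 2.77 for Retnla, and Pparg (-0.75) was then the only member lower in every ACT + NKTR-214 tumor. With Csf1r, the receptor for macrophage colony-stimulating factor, as the only reference, the difference was 4.61 for Chil3 and 2.18 for Retnla.

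**Figure D2:**
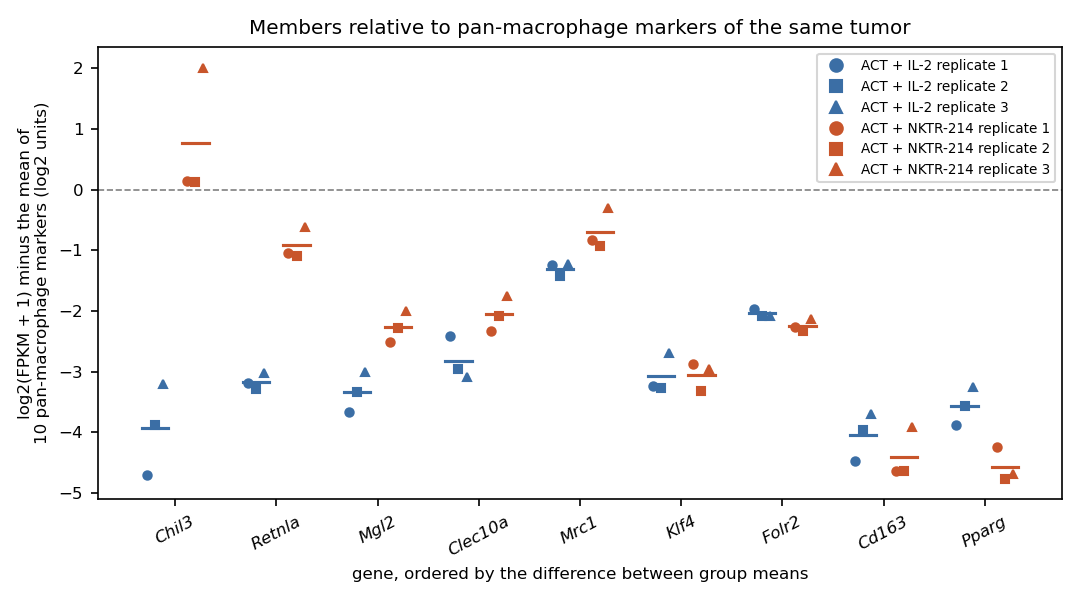
The log2(FPKM + 1) of 9 members minus the mean of 10 pan-macrophage markers in the same tumor, in log2 units, with symbols for the replicates, bars for the group means and a dashed line where a member equals the marker mean. The differences between the group means run from 4.69 for Chil3 down to -1.0 for Pparg.

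The spread of Chil3 within each group was not used to choose it, and it followed another course than that of the other members. In ACT + IL-2, Chil3 was highest in replicate 3, while the other 8 tested members were all highest in replicate 1. At the estimated depth, Chil3 had about 27.4 reads in replicate 3 and 26.4 in replicate 1, too close to order these tumors. In ACT + NKTR-214, Chil3 was highest in replicate 3, where the pan-macrophage markers were lowest, whereas 7 of the other 8 were highest in replicate 2 and Pparg was highest in replicate 1. Chil3 differed 3.13-fold between the highest and lowest ACT + NKTR-214 tumors, against 1.34-fold to 2.06-fold for the other 8. None of the other members put the 6 tumors in the order of Chil3, but only 56 of the 14172 genes tested did, so this says little of the members.

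Likeness to Chil3 was measured as the root mean square, over the 6 tumors, of the difference between deviations from the group mean on the log2 scale, for the 11557 genes with a mean of at least 1 FPKM. Low values are near, and the score itself does not use the difference between the groups, but the minimum of 1 FPKM is a mean over both groups and can be met through either. A gene with no spread within groups would score 0.49, and 2295 of the ranked genes scored below this, so ranks beyond it say little of a shared course. Cd163, which met the minimum only through ACT + NKTR-214, was the nearest member (0.44), only slightly below that value, and the other 7 lay above it, from 0.55 for Mgl2 to 0.79 for Clec10a. The nearest gene of all was Alox15 (0.18), which encodes 12/15-lipoxygenase, an IL-4-responsive lipid enzyme of macrophages and eosinophils. Alox15 was at 0.398, 0.307 and 0.415 FPKM in the ACT + IL-2 tumors and at 1.36, 2.24 and 4.09 FPKM in the ACT + NKTR-214 tumors. These put all 6 tumors in the same order as Chil3, which held for 56 of the 14172 genes tested, Alox15 among them. That order requires every ACT + NKTR-214 tumor to lie above every ACT + IL-2 tumor, as in 3844 genes, so it partly restates the difference between the groups. It also rests on ACT + IL-2 replicates 3 and 1, which were nearly level for Chil3 (about 27.4 and 26.4 reads).

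After Alox15 came Ifit3, Thbs4, Ifit3b, Cdsn, Retnlg, Gm4841, Ccl24, Isg15 and Ifit1, with values from 0.23 to 0.30. Of the 10, Alox15, Thbs4, Cdsn, Retnlg and Ccl24 met the minimum of 1 FPKM only through ACT + NKTR-214, so their place in the ranking depends on the difference between the groups. Ccl24, which encodes eotaxin-2, an IL-4-responsive chemoattractant for eosinophils, was at 0.163, 0.1695 and 0.223 FPKM in ACT + IL-2 and at 6.67, 8.79 and 11.6 FPKM in ACT + NKTR-214. Ifit3, Ifit3b, Isg15 and Ifit1 are interferon-induced antiviral genes, and Ifit3 and Ifit3b are near-identical copies whose reads may be shared. None of these 4 passed the limma test between the groups (adjusted p of 0.147, 0.127, 0.863 and 0.121), and their log2 fold changes ran from -0.45 to -0.05, so the likeness concerns the spread within groups. Isg15, for example, was at 24.5, 30.0 and 39.9 FPKM in the ACT + NKTR-214 tumors. Thbs4, a thrombospondin gene, and Cdsn, the corneodesmosin gene, were higher in ACT + NKTR-214, with log2 fold changes of 1.10 (adjusted p = 0.0066 from limma) and 1.47 (adjusted p = 1.06e-05), and Gm4841 was lower (-0.78, adjusted p = 0.007). With a pseudocount of 0.1, 5 of the 10 nearest genes were shared, Alox15, Ifit3, Ifit3b, Ccl24 and Isg15, while Thbs4 moved from rank 3 to rank 4354 and Retnlg from rank 6 to rank 645, and with values scaled to a common 75th percentile 9 were shared. With 3 tumors per group many genes share such a course by their order alone: 689 genes (4.86% of those tested) put the ACT + NKTR-214 tumors in the order of Chil3. No likeness here is more than a description of 6 tumors.

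**Figure D3:**
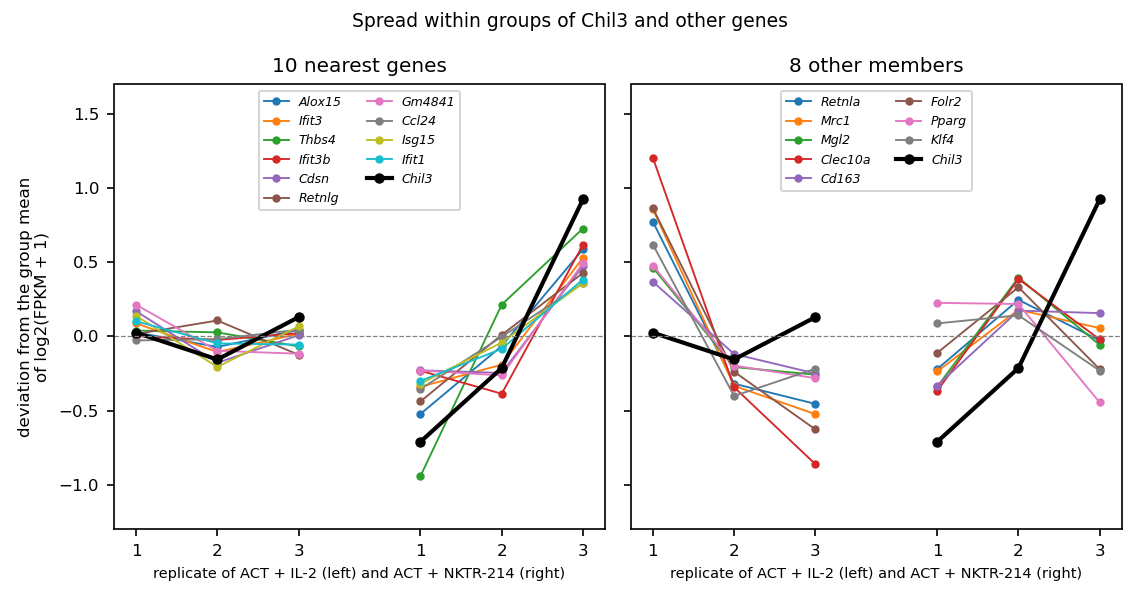
Deviation of log2(FPKM + 1) from the mean of its own group, for replicates 1, 2 and 3 of ACT + IL-2 (left of each panel) and of ACT + NKTR-214 (right), with Chil3 in black and lines joining tumors of a group only to guide the eye. The 10 nearest genes share the high ACT + NKTR-214 replicate 3 of Chil3 (0.92 above its group mean), while the other members were mostly highest in replicate 1 of ACT + IL-2 and in replicate 2 of ACT + NKTR-214.

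The IL-4 and IL-13 axis around these genes was read from a list of 29 genes that held none of the members. Of 26 tested, 23 were higher in ACT + NKTR-214 and 0 were lower, against 20.7% and 8.28% of all genes tested. Tslp, Kdm6b and Ppargc1b did not pass, and the median log2 fold change was 1.07 against 0.045 for all genes. Among the ligands and inducing cytokines, Il13 was at 0.0695, 0 and 0 FPKM in ACT + IL-2 and at 0.806, 0.918 and 1.01 FPKM in ACT + NKTR-214. Il13 reached the minimum for testing only through ACT + NKTR-214, and without it 22 of 25 were higher. Il4 was below the minimum, at 0.210 FPKM or less in every tumor, as was Il25. Il33, an alarmin that stimulates type 2 lymphocytes, was at 4.38, 2.10 and 2.63 FPKM in ACT + IL-2 and at 12.6, 15.2 and 7.79 FPKM in ACT + NKTR-214 (log2 fold change 1.67, adjusted p = 5.08e-05 from limma). The 6 receptor genes were all higher. Il4ra, the shared signalling chain, was at 14.6, 5.90 and 5.01 FPKM in ACT + IL-2 and at 29.2, 37.3 and 28.1 FPKM in ACT + NKTR-214 (log2 fold change 1.90, adjusted p = 5.57e-05 from limma). The common gamma chain gene Il2rg, which T cells also express, had a log2 fold change of 2.21, Crlf2 1.80 and Il13ra1 0.64. Of the 8 transducers 6 were higher, with 0.43 for Stat6 (adjusted p = 0.0431 from limma), 0.87 for Jak1 and 1.48 for Jak3.

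All 9 tested targets of the axis were higher, against 20.7% of all genes tested. Ccl17, a chemokine for T cells with the receptor CCR4, went from between 0.254 and 1.30 FPKM to between 11.3 and 21.7 FPKM (log2 fold change 3.35, adjusted p = 1.03e-07 from limma). Tgm2, transglutaminase 2, and Socs1, a feedback inhibitor of cytokine signalling, were abundant targets, with log2 fold changes of 1.16 and 0.87. Of the 9, Alox15 (0.18), Ccl24 (0.29), Slc7a2, the arginine transporter CAT2 (0.37), and Ccl17 (0.44) were nearer to Chil3 within groups than a gene without spread, Ccl17 only slightly, and of these Alox15, Ccl24 and Ccl17 met the minimum for ranking only through ACT + NKTR-214. Fcer2a was below the minimum.

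The rise was not limited to genes of alternative activation. Of 11 classical activation genes 7 were higher, with a median log2 fold change of 1.11. Beside this count and those below, 20.7% of all genes tested were higher and 27.1% were higher without overlap. Nos2, the inducible nitric oxide synthase, was at 9.05 to 18.1 FPKM in ACT + IL-2 and 50.1 to 61.2 FPKM in ACT + NKTR-214 (log2 fold change 2.11, adjusted p = 1.96e-06 from limma), and Irf5 had a log2 fold change of 1.24. The interferon-induced chemokines Cxcl10 (0.03, 95% interval -0.34 to 0.40) and Cxcl9 (-0.05, -0.52 to 0.42) did not pass, and neither did Il1b and Il12b. Of 8 inflammatory monocyte genes 7 were higher, with log2 fold changes of 3.99 for Ly6c2, 2.19 for Plac8, 1.61 for Hp and 0.82 for Fn1, and 5 of the 8 came without overlap, Hp and F13a1 being higher with overlapping groups. Of the 6 tested resident macrophage genes 5 were higher (Pf4 2.37, Selenop 1.43, Gas6 1.13, Stab1 1.04 and Lyve1 1.78), with overlapping groups for Gas6, Cbr2 did not pass and Timd4 was below the minimum. The 5 T cell genes (Cd3g, Cd3e, Cd8a, Cd3d and Cd4) all passed, with a median of 3.38, and their sum was 7.63 to 18.2 FPKM in ACT + IL-2 and 97.4 to 208 FPKM in ACT + NKTR-214. Of 8 dendritic cell genes 6 were higher, Itgax most among the 4 abundant ones (1.65, against 1.37 for Batf3, 1.06 for Ccr7 and 0.86 for Clec9a). The part of any of these cells in the members' levels was not tested.

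Chil3 is also expressed by neutrophil precursors and alveolar macrophages, so their markers were read beside it. Of 10 tested neutrophil genes 6 were higher in ACT + NKTR-214, against 20.7% of all genes tested. Among them were Retnlg (log2 fold change 1.15), S100a9 (2.68), Mmp8 (2.52), S100a8 (2.45) and Csf3r (1.11). The summed level of the 13 listed genes was 5.97 to 13.7 FPKM in ACT + IL-2 and 32.5 to 73.2 FPKM in ACT + NKTR-214, highest in replicate 2, whereas Chil3 alone was at 74.8 to 234 FPKM and highest in replicate 3. Retnlg of the same list was at 1.06, 1.82 and 2.76 FPKM in ACT + NKTR-214, the order of Chil3. In ACT + IL-2 it rests on about 3.89, 4.86 and 1.94 reads, too few to order these tumors. The likeness rank of Retnlg moved from 6 to 645 with a pseudocount of 0.1. The precursor genes Elane and Mpo were at 0.241 FPKM or less and Ly6g at 0.133 FPKM or less in every library, and Camp, Ltf and Ngp did not pass. Of the alveolar macrophage list Car4, the carbonic anhydrase IV gene, was at 0.477 to 0.636 FPKM in ACT + IL-2 and 18.0 to 29.4 FPKM in ACT + NKTR-214 (log2 fold change 3.88, adjusted p = 1.08e-09 from limma). Ear2 (1.91) and Siglecf (0.69) were also higher, Siglecf being tested only because of its level in ACT + NKTR-214, Marco did not pass (-0.07, adjusted p = 0.797 from limma), Krt79 and Ear1 stayed at 0.115 FPKM or less and Fabp1 was at 0 in all libraries. The lung epithelial genes Sftpa1 and Scgb3a2 were at 0 throughout, Sftpb, Sftpc and Sftpd reached 0.122 FPKM at most, Scgb1a1 0.262 FPKM, and Ager did not pass.

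Eosinophil genes, which share Siglecf, Ear1 and Ear2 with that list, were low, with sums of 0.339 to 0.820 FPKM in ACT + IL-2 and 5.76 to 9.96 FPKM in ACT + NKTR-214. Of 5 tested, Ear2, Prg2, Siglecf and Ear6 were higher and Ccr3 was not, and all but Ear2 reached the minimum only through ACT + NKTR-214. Of 5 endothelial genes only Pecam1 passed (1.11), with overlapping groups, while Cdh5 (0.37), Emcn (0.52), Kdr and Tek did not. Of 6 adipocyte genes Fabp4 (1.06) and Cidec (1.23) passed, with overlapping groups, and Cfd, Adipoq, Plin1 and Lep did not. For comparison, 20.7% of all genes tested were higher, so the endothelial count is about that share. Of the skin epithelial genes, some of which come from cells that use Klf4, Krt5 (0.20) and Krt14 (0.15) did not pass, Krt10, Krt15 and Lor were below the minimum, and Krt1 and Dsg1a were at 0 in all libraries. The part of neutrophils, eosinophils and adipocytes in the members' values was not tested.

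**Figure D4:**
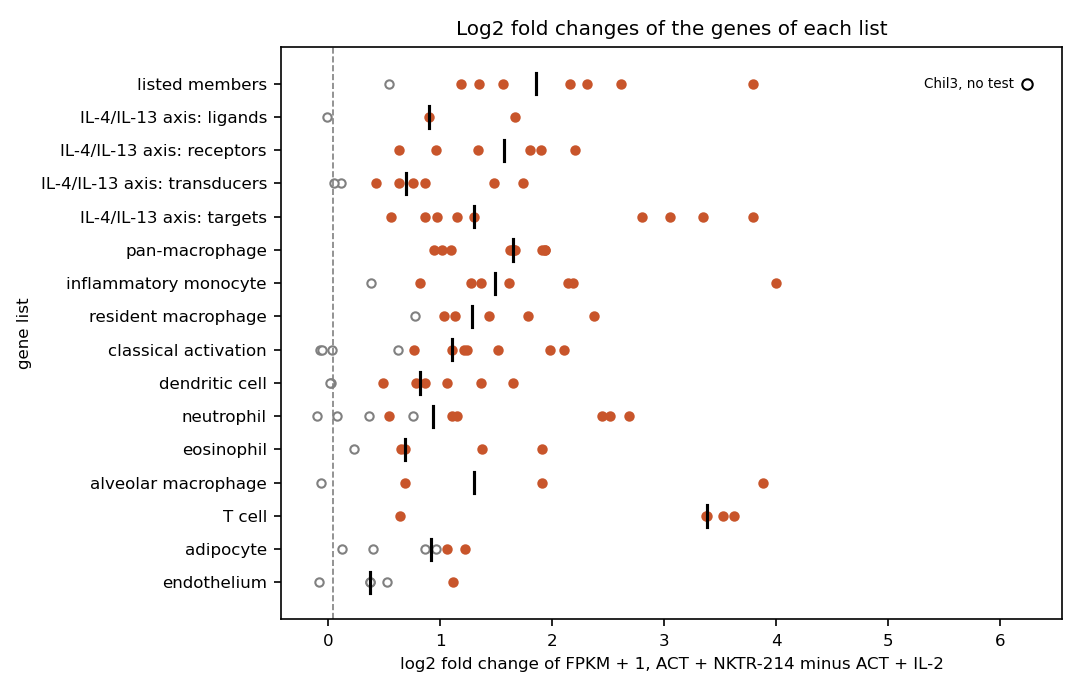
Log2 fold change of FPKM + 1, ACT + NKTR-214 minus ACT + IL-2, for each tested gene of 16 lists, filled where the limma test passed and open grey where it did not, with a black bar for the list median without Chil3 and a dashed line for the median of all genes (0.045). Chil3 is drawn as an open black circle at 6.23 with no test, and the member median of 1.86 lies above those of the 4 IL-4/IL-13 lists and below that of the T cell list (3.38).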

How the data were processed

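RNA of 6 whole tumors was sequenced as 50-base single-end reads. The authors used HISAT2 2.0.4 for mapping to GRCm38 and HTSeq for counting, and what they deposited are FPKM values, not on a log scale, with a column for each tumor. The annotation and the counting settings are not given in the sources used here. All columns were matched to a tumor, and no columns of the authors' own comparisons were present. The depth of each library was estimated from the commonest lowest FPKM step and GENCODE vM21 exon lengths. Only 28.2% to 31.1% of low values came within 0.05 of a whole read, so this depth is approximate and no count test was run. Replicates are separate mice.

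Values were taken as log2(FPKM + 1), and entries with a mean of at least 0.1 FPKM were compared in limma 3.58.1 (R 4.3.3; lmFit, eBayes with a trend) with Benjamini-Hochberg adjustment. A fold change on this scale understates that of low genes. Replicate numbers stand for different mice, so no block was used. On simulated data with 200 changed genes among 14200, the fit called 198 of them and 10 unchanged genes. The planted changes were larger than many reported here and lay only in genes with a mean of at least 1 FPKM. The simulation therefore does not show how often smaller changes, or changes in lower genes, are found. The members and lists were chosen with earlier results of these data known, and the melanocyte list was added last. The genes named are the members, the 10 genes nearest to Chil3, the chitinase-like and resistin-like families, and of each other list the 4 most abundant genes and those that a count of 5 or fewer refers to or that are at 0 in all libraries. Gzmf, Gm10602, Slc7a2 and some genes of the neutrophil, alveolar macrophage, lung, skin and endothelial lists lie outside this rule and were named after their values were seen. As alternatives, a minimum of 1 FPKM and none, a pseudocount of 0.1, eBayes without the trend, quantile normalization, scaling to the 75th percentile, the replicate number as a block, Csf1r as the reference, and leaving out each tumor were tried. One listed gene is counted in its list, but its own values are not reported here. Start regions are from RefSeq. Figures were drawn with matplotlib 3.10.9 and tables with pandas 2.3.3 and numpy 2.4.6, under Python 3.11.15.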

Additional observations from a re-analysis of the deposited data

How the results depend on the processing

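Over all genes, 2940 were higher and 1173 lower in ACT + NKTR-214. Scaling to a common 75th percentile gave 3262 higher and 3710 lower, and quantile normalization gave 2669 higher and 4549 lower and shifted the median over all genes from 0.045 to -0.10 on the log2 scale, so the share of lower genes depends on the scaling. The 7 members that rose did so under each scaling, minimum and pseudocount tried. Leaving out each tumor gave 2005 to 3476 genes higher and 636 to 1996 lower, 6 to 8 members higher and 0 lower, 22 to 23 of the IL-4 and IL-13 genes higher and 0 lower, and 4 to 10 pan-macrophage markers higher and 0 lower. The p-values of these fits were unstable, as shown by Retnla above, so the counts and passes they gave are approximate. The pan-macrophage count was 8 with either scaling, with no minimum or with eBayes without the trend. Relative to these markers, 5 members stayed higher and 2 to 3 were lower in every ACT + NKTR-214 tumor when a tumor was left out, and a pseudocount of 0.1 gave 6 higher and 1 lower. With that pseudocount 5 of the 10 genes nearest to Chil3 were shared. Same-numbered tumors of the groups had correlations of their deviations of -0.21, -0.07 and 0.40. These values show no regular pairing by number, but they cannot exclude one. With the replicate block 3090 genes were higher and 1227 lower, and 8 members were higher, with Pparg at an adjusted p of 0.00545. Chil3 in ACT + IL-2 rests on about 18.0 to 27.4 reads.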
